A study of Mus musculus with 19 samples.

Results

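The late effect of losing Mpc1 in the adult mouse heart was measured in ventricular RNA taken 16 weeks after the knockout. Expression in 5 knockout libraries (KO-16, genotype MPC1 knockout) was compared with that in 5 libraries from wild-type hearts of the same time point (WT-16). These 10 libraries were chosen by their labels from the 19 of the series, whose remaining libraries were taken at 8 weeks. By the title of the series the knockout was inducible and limited to the heart. The Cre line, the inducing agent, the strain, the age, whether the controls carried Cre or received the agent, and whether the libraries are of separate animals are not given in the sources used here. The p-values therefore measure the spread between libraries, which may be technical. The RNA was total RNA depleted of ribosomal RNA and sequenced as stranded read pairs.

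Mpc1 and Mpc2 together form the mitochondrial pyruvate carrier, which moves pyruvate from glycolysis across the inner mitochondrial membrane to pyruvate dehydrogenase. The adult heart draws most of its energy from fatty acids and also burns pyruvate, lactate, ketone bodies and branched-chain amino acids. A heart under lasting load returns to fetal contractile and natriuretic peptide genes and lays down extracellular matrix, much of it made by activated fibroblasts.

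The libraries differed in depth and composition. The counted read pairs numbered 8632127 to 19678367 in WT-16 libraries and 9538130 to 26914074 in KO-16 libraries. A gene annotated on 18S ribosomal RNA held a share of 6.88% to 39.1% in the wild types and of 1.71% to 29.96% in the knockouts, and it was left out before scaling. Of the remaining counts, 32.2% to 58.9% in the wild types and 28.4% to 51.6% in the knockouts were mitochondrial. By sex-linked transcripts 1 library of each group came from a male (WT-16 replicate 5 and KO-16 replicate 4). The common coefficient of variation was 0.167 within WT-16 and 0.265 within KO-16. Levels are CPM (counts-per-million), scaled with TMM factors, and are listed from replicate 1 to replicate 5. Within KO-16, replicates 1 and 5 stood nearer to the wild types than the others did, and they had the lowest limma quality weights (0.492 and 0.488, against 0.608 to 2.33). These weights fall with distance from the group mean, so they are no separate sign of poor quality. Counts of called genes are also given with either of these libraries left out. Leaving out a library because it lies near the other group favours higher counts, so a rise in them is no separate support. Adjusted p-values are from the quasi-likelihood test of edgeR with Benjamini-Hochberg adjustment over 12402 genes, with a threshold of 0.05, and log2 fold changes are KO-16 over WT-16.

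Mpc1 was lower in all KO-16 libraries than in any WT-16 library. Its annotation (ENSMUSG00000023861) spans chromosome 17, 8282904 to 8297661, plus strand of GRCm38. It had 58.5, 59, 69.8, 62.9 and 79.3 CPM in WT-16 and 24.9, 8.57, 8.82, 14.4 and 15.2 CPM in KO-16. The group means were 65.9 ± 8.75 and 14.4 ± 6.63 CPM (SD, n = 5 each), and the change passed the test (log2 fold change -2.21, SE 0.26, adjusted p = 0.00169). KO-16 replicate 1 kept the most Mpc1, and replicates 2 and 3 kept the least. The processed pseudogene Mpc1-ps had 16.1, 13, 19.5, 14.8 and 18.9 CPM in WT-16 and 2.79, 0.397, 0.0588, 0.813 and 1.91 CPM in KO-16 (log2 fold change -3.95, SE 0.53, adjusted p = 0.00572). Reads of a gene and its near-identical pseudogene can be exchanged in counting, so the value of Mpc1-ps is uncertain. Sft2d1, the gene annotated next downstream of Mpc1 (chromosome 17, 8311102 to 8327442, plus strand) and named after its values were seen, rose from 1.68, 3.59, 3.23, 2.99 and 2.39 CPM in WT-16 to 17, 10.7, 9, 11.2 and 16 CPM in KO-16 (log2 fold change 2.14, SE 0.24, adjusted p = 0.00135). Mpc2, the partner subunit, had 35.3, 34.9, 47.7, 41.2 and 43 CPM in WT-16 and 49.6, 58.3, 41.6, 37.5 and 37.3 CPM in KO-16. Its groups overlapped and the difference did not pass the test (log2 fold change 0.15, SE 0.14, adjusted p = 0.525).

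The gene with the smallest adjusted p was Esr1, which encodes an estrogen receptor whose ligand-binding domain is part of many inducible Cre proteins. It had 2.16, 1.71, 1.53, 0.786 and 0 CPM in WT-16 and 981, 173, 482, 223 and 401 CPM in KO-16 (log2 fold change 8.44, SE 0.61, adjusted p = 2.94e-05). Whether these reads came from the endogenous gene or from a transgene cannot be told apart from gene counts. A1cf, an RNA-binding protein of apolipoprotein B mRNA editing, was at 0 in each WT-16 library and had 3.79, 3.63, 5.47, 2.91 and 4.76 CPM in KO-16. Set against a floor of 3 counts over the WT-16 group, its KO-16 mean was at least 60.15-fold higher (edgeR adjusted p = 0.00116).

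**Figure D1:**
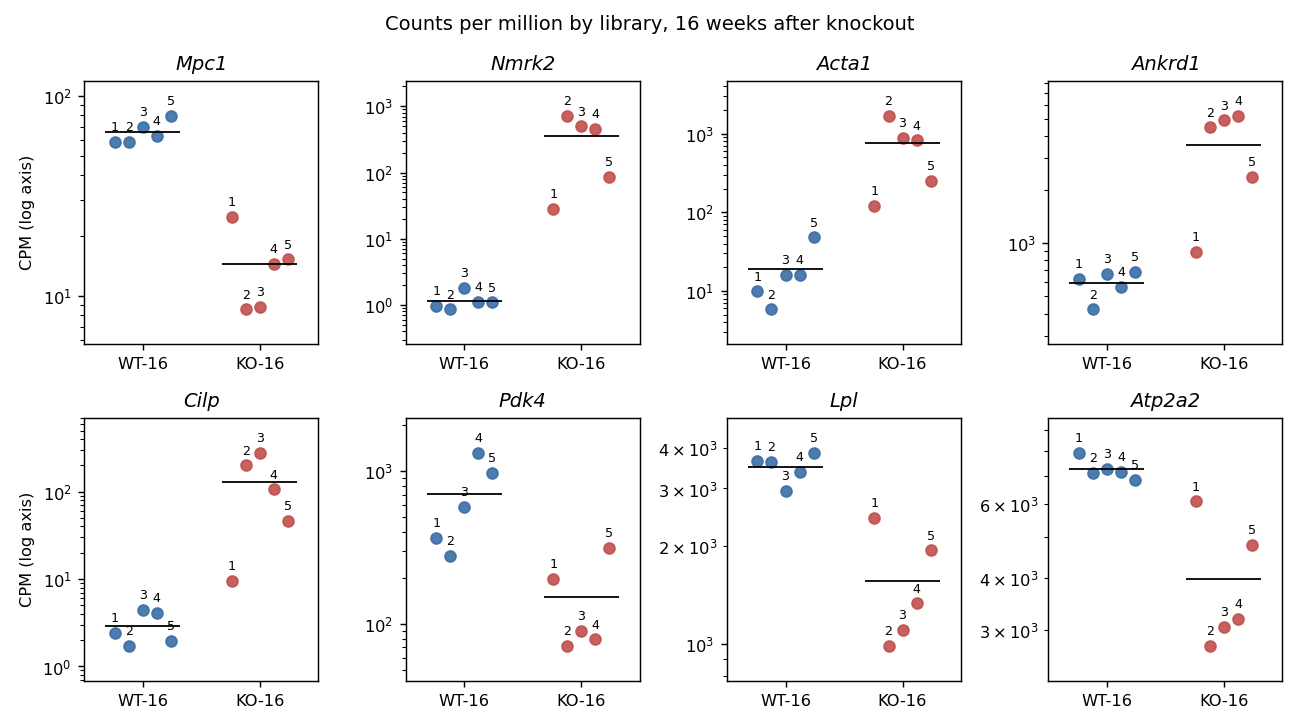
CPM of 8 genes in each library on a logarithmic axis, WT-16 in blue and KO-16 in red, with the replicate number beside each point and a line at the group mean. KO-16 replicate 1 is the KO-16 library nearest the wild types in all panels but Pdk4, where replicate 5 is.

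In KO-16, genes of the extracellular matrix and of the fetal and stress programme of the heart muscle were higher, and genes of fatty acid and branched-chain amino acid breakdown were lower. Of 12402 genes tested, 363 passed the threshold (2.93%), 245 of them higher (1.98%) and 118 lower (0.951%). With no scaling factors, which moved the median of all genes to 0.40, 613 were higher and 21 lower. At least 2-fold changes were found for 171 of the higher and 54 of the lower genes. The 5 libraries of one group lay apart from the 5 of the other for 584 tested genes (4.71%), among them 127 of the 245 higher and 95 of the 118 lower genes. The called genes were picked for a difference between these same libraries, so a lack of overlap in them is no separate support. The median log2 fold change of all genes tested was 0.01. Of the lower genes 98 were protein coding, against 241 of the higher genes and 11219 of all tested.

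The count of called genes depended on single libraries. Without any 1 library of WT-16 it was 29 to 214, at 32, 29, 214, 32 and 48 without replicates 1 to 5. Without KO-16 replicates 2, 3 or 4 it was 71, 49 and 36. Without KO-16 replicate 1 it rose to 1708, and without replicate 5 to 1849. In each of these 10 fits all 363 genes kept the sign of their fold change, and 26 of them (19 higher, 7 lower) passed the threshold in all 10. The 363 genes were picked for a difference in these same libraries, so a kept sign is no separate support. With the 18S share of each library as a covariate 27 genes passed, all among the 363. Without both male libraries, a fit added after the data were seen, 10 passed. The number of genes with an unadjusted p under 0.05 moved less, from 3168 with all libraries to between 2104 and 5544 over all alternatives.

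**Figure D2:**
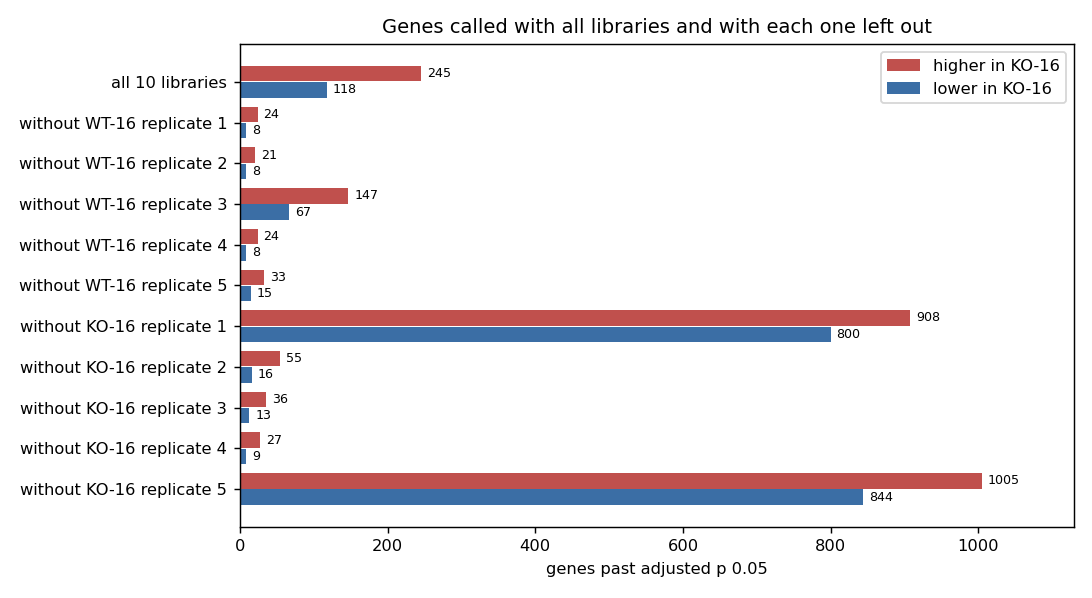
Number of genes past an adjusted p of 0.05, higher (red) or lower (blue) in KO-16, with all 10 libraries and with each library left out. The counts were 245 and 118 with all libraries, 1005 and 844 without KO-16 replicate 5, and 21 and 8 without WT-16 replicate 2.

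The 26 genes that passed in every one of these fits include Mpc1, Mpc1-ps, Sft2d1, Esr1 and A1cf, described above, and Nmrk2, Acta1, Ankrd1, Cilp and Col8a1, described below. Others of the 26 were named after their values were seen. Nabp1, which encodes a single-strand DNA binding protein of the damage response, had 67.2, 57.5, 51.2, 65 and 48 CPM in WT-16 and 104, 231, 193, 267 and 203 CPM in KO-16 (log2 fold change 1.79, SE 0.21, adjusted p = 0.00169). Itgbl1, a secreted protein with integrin-like repeats, rose from 6.72, 5.65, 6.63, 6.13 and 7.17 CPM in WT-16 to 10.3, 46.1, 73.6, 43.7 and 29.2 CPM in KO-16 (log2 fold change 2.66, SE 0.40, adjusted p = 0.00829). Adamtsl2, a matrix protein that binds fibrillin, rose from 2.16, 8.56, 6.85, 6.92 and 4.35 CPM in WT-16 to 16.8, 51.5, 78.6, 38.6 and 17.1 CPM in KO-16 (log2 fold change 2.77, SE 0.44, adjusted p = 0.0107). The groups did not overlap in any of these 3 genes, and KO-16 replicate 1 was the lowest of its group in all 3.

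The next genes also passed in all 10 fits. Plpp1, a phosphatase of lipid phosphates, had 18.7, 20.9, 23.3, 19.2 and 21.5 CPM in WT-16 and 31.6, 35.2, 41.1, 34.4 and 33.3 CPM in KO-16 (log2 fold change 0.76, SE 0.11, adjusted p = 0.00829). Prkg1, the cyclic GMP-dependent protein kinase that acts downstream of natriuretic peptides and nitric oxide, rose from a range of 26.6 to 32.6 CPM in WT-16 to 39.1 to 61.1 CPM in KO-16 (log2 fold change 0.83, SE 0.13, adjusted p = 0.0083). Msrb1, a methionine sulfoxide reductase, rose from a range of 10.6 to 17.8 CPM in WT-16 to 25.1 to 52.7 CPM in KO-16 (log2 fold change 1.46, SE 0.22, adjusted p = 0.00829). Grin2c, a glutamate receptor subunit, and Haus8, a subunit of the augmin complex of the spindle, rose by 3.21 and 2.06 on the log2 scale, and Lama3, a laminin chain, by 1.15. Among the falls, Slc7a1, a transporter of cationic amino acids, had 33.1, 40.4, 33.9, 38.1 and 37.8 CPM in WT-16 and 20.5, 16.8, 18.2, 20.5 and 14.1 CPM in KO-16 (log2 fold change -1.02, SE 0.12, adjusted p = 0.00183). Prepl, a serine hydrolase, fell from a range of 58.8 to 82 CPM in WT-16 to 24.2 to 47.3 CPM in KO-16 (log2 fold change -1.08, SE 0.17, adjusted p = 0.0107). All of these genes lay apart between the groups.

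The KO-16 libraries did not move to the same extent. Over the 245 genes called higher, the median shift of a library from the WT-16 mean was 40.7% of the mean KO-16 shift in replicate 1, 133% in replicate 2, 138% in replicate 3, 122% in replicate 4 and 70.8% in replicate 5. Over the 118 genes called lower it was 44.0%, 133%, 126%, 121% and 73.6%. Replicate 1 was the KO-16 library nearest to WT-16 for 174 of the 245 and 88 of the 118 genes, and replicate 5 for 58 and 27. Of the WT-16 libraries, replicate 3 was most often the nearest to KO-16, for 102 of the 245 and 46 of the 118 genes. Its median shift toward KO-16 was 15.7% and 9.37% of the mean shift, and those of the other WT-16 libraries were -8.71% to 0.752% and -5.14% to -0.327%. The median SD of log2 CPM over the KO-16 libraries was 0.58 in genes called higher, 0.41 in genes called lower and 0.31 in all genes tested. In WT-16 it was 0.29, 0.19 and 0.26.

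These genes were called with all 10 libraries, so each library was also placed on genes called without it. On the 1672 genes called without KO-16 replicate 1 and tested with all libraries, that replicate showed a median of 23.6% of the difference between the other 4 KO-16 libraries and WT-16 (quartiles 5.36% and 42.0%), and it lay on the KO-16 side of the WT-16 mean for 1341 of them. KO-16 replicate 5 showed 24.04% (quartiles -8.68% and 55.6%) on 1828 genes and lay on the KO-16 side for 1272. Replicates 2, 3 and 4 showed 138%, 129% and 119.5% on 69, 47 and 34 genes. The number of genes that enter differs by that much because these are the genes each fit called. For replicates 2, 3 and 4 the other 4 libraries include replicates 1 and 5, whose small shifts raise the percentages. These percentages are therefore not on a common scale, unlike those of the preceding paragraph. KO-16 replicates 1 and 5 had Mpc1 at 24.9 and 15.2 CPM and the 18S gene at 12.7% and 26.1% of their counts. Replicates 2, 3 and 4, with larger shifts, had Mpc1 at 8.57, 8.82 and 14.4 CPM and the 18S gene at 1.71%, 5.66% and 29.96%. The part of Mpc1 level or depth in these shifts was not tested.

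**Figure D3:**
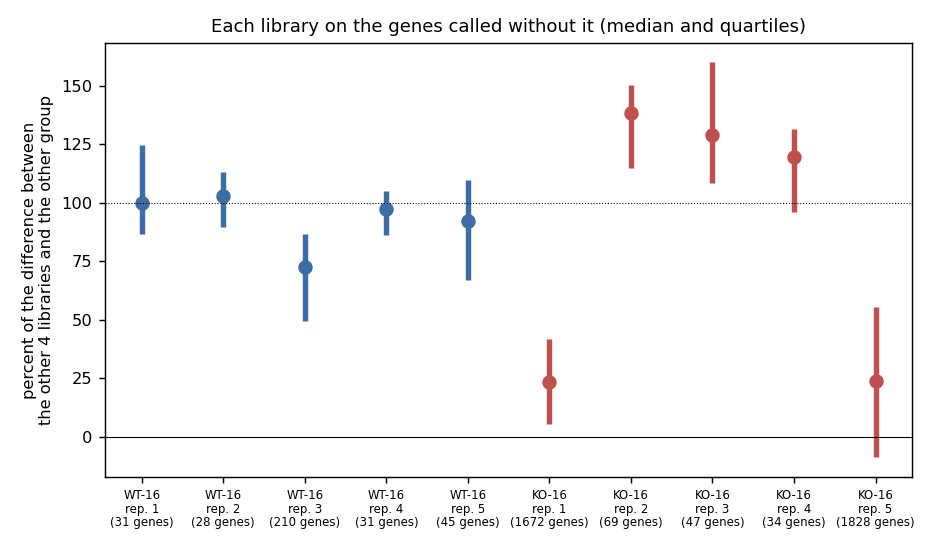
Position of each library on the genes called from the other 9 libraries, as percent of the difference between the other 4 libraries of its group and the other group (point: median over genes, bar: quartiles). KO-16 replicates 1 and 5 sit at 23.6% and 24.04%, the other KO-16 libraries at 119.5% to 138% and the WT-16 libraries at 72.4% to 103%. The genes and the libraries compared differ from point to point, so the points are not on a common scale.

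The sets of genes described next are 29 lists of pathways and 14 lists of cell type markers, and a list is described by how many of its tested members passed the test and by the median log2 fold change of its members. The counts are read beside the 1.98% of all tested genes that rose and the 0.951% that fell, and a single call in a list of these sizes lies within 1 gene of those shares. In bulk tissue a change in the number of cells of a type and a change in RNA per cell cannot be told apart.

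Structural matrix genes were higher. Of 20 tested genes of fibrillar and network collagens 15 rose and none fell, beside 1.98% of all tested genes that rose, and their median log2 fold change was 1.17, against 0.01 over all genes. Col8a1, a network collagen, had 11, 12, 16.5, 14.3 and 14.6 CPM in WT-16 and 25, 208, 211, 146 and 47 CPM in KO-16 (log2 fold change 3.21, SE 0.50, adjusted p = 0.0102). Col3a1, a fibrillar collagen, had 107, 131, 141, 122 and 54.6 CPM in WT-16 and 154, 579, 485, 442 and 294 CPM in KO-16 (log2 fold change 1.81, SE 0.32, adjusted p = 0.0191). In both genes the groups lay apart, KO-16 replicate 1 was the lowest of its group and replicates 2 to 4 were the highest.

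Col1a1 and Col1a2, the chains of type I collagen, had log2 fold changes of 2.03 (adjusted p = 0.0304) and 2.14 (adjusted p = 0.0207), Col5a2 of 2.08 (adjusted p = 0.0193) and the basement membrane chain Col4a1 of 1.58 (adjusted p = 0.0253). Col12a1, which sits on collagen fibrils, rose from 0.960, 0.513, 2.53, 2.52 and 4.13 CPM in WT-16 to 1.86, 38.2, 71.9, 30.4 and 13.2 CPM in KO-16 (log2 fold change 3.84, SE 0.76, adjusted p = 0.0275), with replicate 1 inside the WT-16 range. Col6a1, of the microfibrils around cells, rose by 1.08 (37.2 to 48.7 CPM among the wild types and 56.9 to 113 CPM among the knockouts). Its SD of log2 CPM was 0.15 in WT-16 and 0.43 in KO-16. Col8a1 passed with each library left out. The collagen count fell to 1 without WT-16 replicate 2 or 4 and was 18 without KO-16 replicate 1 and 17 without replicate 5. Over all alternatives its lowest value was 0. The calls of the other collagens named here were lost without WT-16 replicate 2 and without replicate 4, with adjusted p-values up to 0.0912 (Col1a1).

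Matricellular proteins, which sit in the matrix and signal to cells, and other matrix proteins were higher in 18 of 30 tested members, with none lower and a median of 1.59. Thbs4, a thrombospondin, had 0.960, 1.37, 1.09, 1.89 and 1.96 CPM in WT-16 and 2.06, 59.5, 168, 56.7 and 14.3 CPM in KO-16 (log2 fold change 5.45, SE 0.96, adjusted p = 0.019). Cilp, a matrix protein that binds TGF-beta, had 2.40, 1.71, 4.45, 4.09 and 1.96 CPM in WT-16 and 9.58, 200.1, 281, 106 and 45.9 CPM in KO-16 (log2 fold change 5.34, SE 0.76, adjusted p = 0.00829). Postn (periostin) had 27.6, 34.2, 47.4, 41.5 and 31.3 CPM in WT-16 and 44.3, 399.9, 359, 358 and 145 CPM in KO-16 (log2 fold change 2.83, SE 0.46, adjusted p = 0.0112). KO-16 replicate 3 was the highest library for Thbs4 and Cilp, and replicate 1 the lowest for all 3 genes, inside the WT-16 range for Postn.

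Ltbp2, which binds fibrillin, rose from 0.240, 0.342, 1.44, 0.472 and 0 CPM in WT-16 to 0.931, 29, 78.2, 33 and 6.03 CPM in KO-16 (log2 fold change 5.25, SE 1.02, adjusted p = 0.0256), and its lowest KO-16 library lay inside the WT-16 range. Ccn5, Tnc, Comp and Sfrp2, of low level in WT-16 (means of 0.521, 1.02, 1.63 and 1.18 CPM), had means of 11.2, 12.1, 20.1 and 13.7 CPM in KO-16, with adjusted p from 0.0275 to 0.0492. Sfrp2, a secreted modulator of Wnt signals, had 1.86, 6.32, 49.7, 6.74 and 3.97 CPM in the KO-16 libraries, so that replicate 3 carried most of its mean. The elastic fiber genes Eln and Fbn1 rose by 2.17 and 1.61, Fn1 (fibronectin) by 1.84, Mfap4 by 3.07 and Sparc by 1.48 on the log2 scale. Cilp passed with each library left out. The count of this list fell to 1 without WT-16 replicate 1 or 2 and was 26 without KO-16 replicate 1 and 22 without replicate 5, and the other calls of the list named here were lost without WT-16 replicate 2, with adjusted p up to 0.119 (Sfrp2). Over all alternatives the lowest count of the list was 0.

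Enzymes that process collagen followed in 5 of 21 tested members, all higher, with a median of 0.71. The collagen cross-linking enzymes Loxl1, Loxl2 and Loxl3 rose by 1.68, 1.08 and 1.91 and the procollagen protease Adamts2 by 1.68 on the log2 scale. Lox, the best known member of that family, had a log2 fold change of 2.97 (adjusted p = 0.0565). In TGF-beta signalling 3 of 20 members rose and none fell (median 0.43). They were Ltbp2, the ligand Tgfb3 (log2 fold change 1.23, SE 0.24, adjusted p = 0.0254) and Fstl1, a secreted follistatin-like protein (log2 fold change 1.70, SE 0.29, adjusted p = 0.0168). Without WT-16 replicates 1, 2, 4 or 5 or KO-16 replicate 4 no member of the TGF-beta list passed, and without those or KO-16 replicates 2 or 3 none of the collagen processing list did. Without KO-16 replicate 1 the counts of genes that rose were 8 and 13, and without replicate 5 they were 5 and 12.

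Markers of activated fibroblasts rose in 7 of 9 tested members, none lower, with a median of 2.83, and 6 of these 7 are in the matrix lists above. Meox1, a transcription factor of activated fibroblasts that is in no matrix list, had 2.16, 4.45, 4.93, 4.09 and 3.04 CPM in WT-16 and 4.92, 36.2, 51.5, 32.3 and 10 CPM in KO-16 (log2 fold change 2.79, SE 0.53, adjusted p = 0.0253), with replicate 1 inside the WT-16 range. Of 11 tested general fibroblast markers 4 rose (Col1a1, Col1a2, Mfap5 and Pi16) and none fell, 9 had a positive fold change, and the median was 0.78. The receptor Pdgfra, another of these markers, had 47.7, 41.9, 50.3, 49.5 and 47.2 CPM in WT-16 and 45.6, 42, 43.7, 54.7 and 67 CPM in KO-16 (log2 fold change 0.09, SE 0.13, adjusted p = 0.702). Acta2, the smooth muscle actin of myofibroblasts, had a log2 fold change of 0.19 (adjusted p = 0.75). The summed level of the activated list was 93.0 to 195 CPM in WT-16 and 161 to 1241 CPM in KO-16, and that of the general list 685 to 915 and 883 to 1686 CPM. Without WT-16 replicate 1 or 2 the activated count was 1, without KO-16 replicate 1 it was 8, without replicate 5 it was 7, and the general count ranged from 0 to 6. Over all alternatives the lowest activated count was 0.

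**Figure D4:**
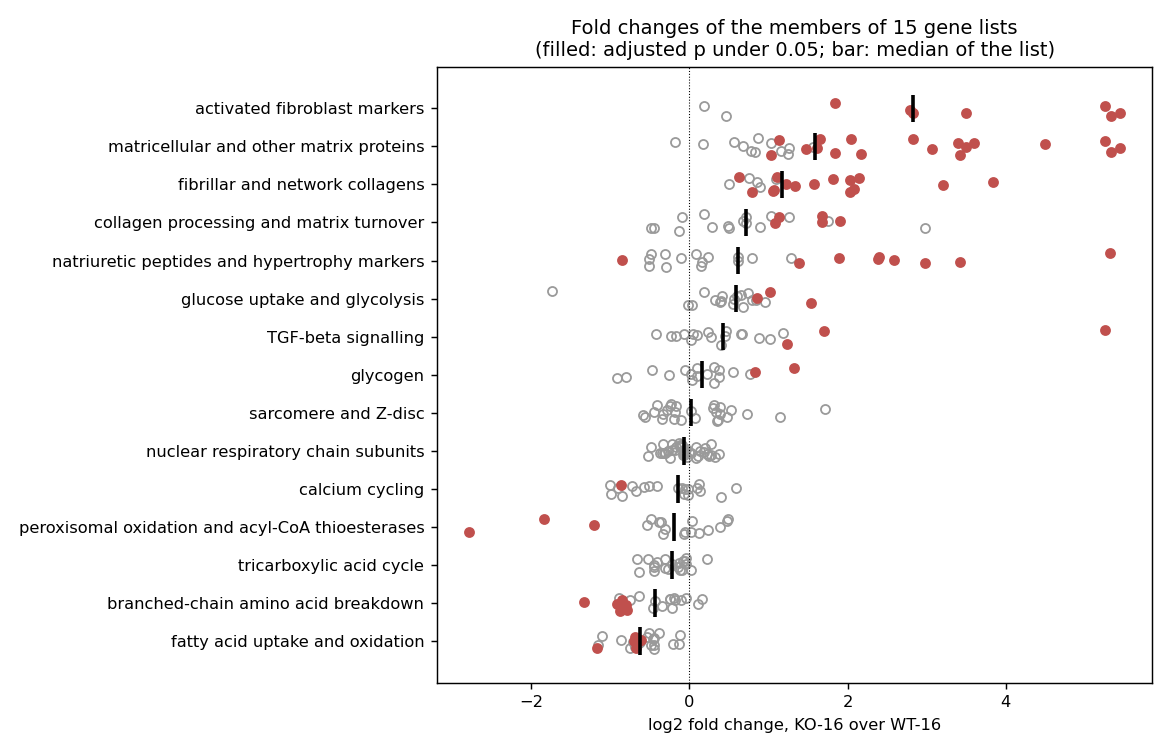
Log2 fold change of each tested member of 15 gene lists, filled red where the adjusted p was under 0.05, with a bar at the list's median. Matrix and activated fibroblast lists lie to the right, with medians from 0.71 to 2.83, and fatty acid and branched-chain amino acid lists to the left, with medians of -0.63 and -0.44.

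Stress and fetal genes of heart muscle were the next group to rise. Of 23 tested natriuretic peptide and hypertrophy genes 8 rose and 1 fell, with a median of 0.61. Acta1, the skeletal actin of the fetal heart, had 9.84, 5.82, 15.8, 15.9 and 47.8 CPM in WT-16 and 120.2, 1684, 882, 820.3 and 250.2 CPM in KO-16 (log2 fold change 5.32, SE 0.74, adjusted p = 0.0077). Ankrd1, a stretch-responsive ankyrin repeat protein of the sarcomere, had 630.1, 422, 673, 568 and 686 CPM in WT-16 and 891, 4492, 4916, 5218 and 2364 CPM in KO-16 (log2 fold change 2.59, SE 0.38, adjusted p = 0.00829). Both lay apart between the groups in all libraries and passed with each library left out.

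Myh7, the fetal myosin heavy chain, had 129, 328, 203, 97 and 144 CPM in WT-16 and 222, 1516, 1147, 1356 and 452 CPM in KO-16 (log2 fold change 2.38, SE 0.47, adjusted p = 0.0279), and KO-16 replicate 1 lay within the WT-16 range. Its adult counterpart Myh6 did not pass (log2 fold change -0.51, adjusted p = 0.176). Actc1, the cardiac actin, had a log2 fold change of 0.15 (adjusted p = 0.463). Fhl1, a LIM protein, rose by 2.39 (adjusted p = 0.0107), and Ankrd23 and the calcineurin regulator Rcan1 by 1.39 and 1.89. Corin, the protease that activates atrial natriuretic peptide, fell from 172, 174, 199.8, 196 and 263 CPM in WT-16 to 142, 60.4, 103, 136 and 117 CPM in KO-16 (log2 fold change -0.85, SE 0.20, adjusted p = 0.0438).

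Nppa, which encodes atrial natriuretic peptide, had 41.7, 24.6, 312, 106 and 41.7 CPM in WT-16 and 250.4, 1720.1, 2240.5, 1308 and 198 CPM in KO-16 (log2 fold change 3.42, SE 0.80, adjusted p = 0.0405). Nppb, which encodes the B-type peptide, had 10.6, 21.2, 35.2, 13.2 and 31.5 CPM in WT-16 and 32.1, 327, 322, 184 and 25.7 CPM in KO-16 (log2 fold change 2.98, SE 0.65, adjusted p = 0.0342). In both genes KO-16 replicates 1 and 5 overlapped WT-16 and replicates 2 to 4 did not. Nppa is also an atrial marker, and atrial markers differed between libraries. Myl7, an atrial myosin light chain, had 0, 0, 83.2, 14.8 and 2.39 CPM in WT-16 and 32.5, 0.529, 0.588, 45.8 and 13 CPM in KO-16. Myl4, another, had 0.960, 1.03, 106, 20.6 and 4.13 CPM in WT-16 and 49, 1.08, 0.941, 98.1 and 23.7 CPM in KO-16. WT-16 replicate 3 and KO-16 replicates 1 and 4 were the highest in both, and KO-16 replicates 2 and 3, which were the highest for Nppa, had at most 1.08 CPM of either. Of 6 tested atrial markers 1 (Nppa) rose and none fell, with summed levels of 33.2 to 555 CPM in WT-16 and 264 to 2267 CPM in KO-16. The part of atrial tissue in the values of Nppa was not tested. The count of the hypertrophy list fell to 2 without WT-16 replicate 1 or 2 and was 10 without KO-16 replicate 1 and 11 without replicate 5. Over all alternatives its lowest value was 1. The calls of Nppa, Nppb, Myh7, Ankrd23, Rcan1 and Corin were lost without WT-16 replicates 1, 2, 4 or 5 or KO-16 replicates 2, 3 or 4, those of Rcan1 and Corin also without WT-16 replicate 3, and that of Fhl1 without WT-16 replicate 1 or 2.

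Nmrk2 had the largest fold change of the genes detected in all libraries. It encodes the muscle kinase that makes nicotinamide mononucleotide from nicotinamide riboside, a side route of NAD synthesis. Its level was 0.960, 0.856, 1.79, 1.10 and 1.09 CPM in WT-16 and 28.3, 717, 497, 451 and 86.4 CPM in KO-16 (log2 fold change 8.09, SE 0.88, adjusted p = 0.00132). The groups lay apart, KO-16 replicates 1 and 5 were the lowest of their group and replicate 2 the highest. The call held with each library left out, with adjusted p up to 0.00806. Of 17 tested genes of NAD and NADPH synthesis it was the 1 that passed. Nampt, the rate-limiting enzyme of the main salvage route, had 299.9 to 330.2 CPM in WT-16 and 145 to 289 CPM in KO-16 (log2 fold change -0.65, adjusted p = 0.0673), and Nnt, the proton-driven transhydrogenase, had -1.11 (adjusted p = 0.0726).

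Promoters are shown for some of the genes with the largest changes, chosen because their windows hold a motif that was searched for. RefSeq windows of 250 bases before the start (GRCm38.p6) were found for 21 of the 30 genes with the largest changes and for 9101 of the tested genes. They were searched on both strands for the TATA box (TATAAA), the MCAT element (CATTCC), AP-1 (TGANTCA), the CArG box, and the nuclear receptor half-site (AGGTCA) alone or repeated after 1 base. Of the 21 windows 8 held at least 1 of the first 4 motifs and 13 held none of those searched. Printed are the windows with a motif of the 3 largest rises among the 8 and of both falls among them. Capitals mark these matches, each run reads 5′ to 3′ on the strand of its gene, and the RefSeq starts of Nmrk2, Acta1, Thbs4, Cfap61 and Ehhadh lie 14, 24, 0, 0 and 27 bases from those of the annotation used in counting.
Nmrk2 (chr10:81202038-81202287, minus strand, TATA box): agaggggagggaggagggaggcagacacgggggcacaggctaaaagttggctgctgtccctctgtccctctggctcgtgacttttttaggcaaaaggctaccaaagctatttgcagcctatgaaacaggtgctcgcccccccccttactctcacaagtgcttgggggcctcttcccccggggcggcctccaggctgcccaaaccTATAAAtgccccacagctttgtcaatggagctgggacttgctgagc
Acta1 (chr8:123894776-123895025, minus strand, CArG box, MCAT and TATA box): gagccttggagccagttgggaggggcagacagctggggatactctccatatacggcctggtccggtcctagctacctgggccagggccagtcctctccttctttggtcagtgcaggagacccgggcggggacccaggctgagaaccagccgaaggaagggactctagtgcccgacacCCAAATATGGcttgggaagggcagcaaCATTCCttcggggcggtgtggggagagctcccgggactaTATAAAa
Thbs4 (chr13:92794819-92795068, minus strand, 2 overlapping MCAT elements): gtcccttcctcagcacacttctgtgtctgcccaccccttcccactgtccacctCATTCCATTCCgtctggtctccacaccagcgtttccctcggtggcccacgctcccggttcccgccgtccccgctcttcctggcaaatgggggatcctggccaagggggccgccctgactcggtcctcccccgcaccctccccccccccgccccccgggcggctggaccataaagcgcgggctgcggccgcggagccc
Cfap61 (chr2:145934534-145934783, plus strand, MCAT element): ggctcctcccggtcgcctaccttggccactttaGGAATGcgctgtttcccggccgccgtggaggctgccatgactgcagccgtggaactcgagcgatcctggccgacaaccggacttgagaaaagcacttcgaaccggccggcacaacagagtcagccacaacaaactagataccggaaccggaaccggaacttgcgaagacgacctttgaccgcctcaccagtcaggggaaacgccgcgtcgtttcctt
Ehhadh (chr16:21787835-21788084, minus strand, MCAT element): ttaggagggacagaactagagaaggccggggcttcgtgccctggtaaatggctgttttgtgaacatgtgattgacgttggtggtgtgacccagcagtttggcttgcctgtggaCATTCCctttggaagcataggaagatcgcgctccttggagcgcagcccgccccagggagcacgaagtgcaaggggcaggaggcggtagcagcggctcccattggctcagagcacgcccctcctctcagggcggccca

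A TATA box was in 6.44% of all windows of tested genes, in 27 of the 190 windows of genes called higher (14.2%) and in 5 of the 77 of genes called lower (6.49%). An MCAT element was in 10.7% of all windows, in 31 of the 190 (16.3%) and in 10 of the 77 (13%). AP-1 was in 3.77% of all, 4.74% of the higher and 3.90% of the lower windows, the CArG box in 1.22%, 2.11% and none, and the half-site in 9.92%, 10.5% and 7.79%. The repeated half-site was in 3 windows of tested genes, none of them called. These are letter matches and no measure of binding, and the shares were not tested.

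Fatty acid genes were lower. Of the 25 tested genes that take up or oxidise fatty acids, 6 fell and 0 rose, beside 0.951% of all tested genes that fell, all 25 had a negative fold change, and the median was -0.63. Lpl, the lipase that frees fatty acids from plasma triglyceride, had 3638, 3615, 2943, 3376 and 3865 CPM in WT-16 and 2429.5, 986, 1106, 1332 and 1937 CPM in KO-16 (log2 fold change -1.16, SE 0.23, adjusted p = 0.0273). Acsl1, which activates fatty acids, had 642, 614, 628, 721 and 668 CPM in WT-16 and 576, 395, 341, 328 and 462 CPM in KO-16 (log2 fold change -0.64, SE 0.15, adjusted p = 0.0438). In both genes the groups lay apart, KO-16 replicate 1 was highest of its group, and replicates 2 to 4 were lowest.

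The carnitine shuttle genes Cpt2, Slc25a20 and Crat fell by 0.68, 0.67 and 0.70 on the log2 scale (adjusted p of 0.047 for each), and Etfa, which passes electrons from the oxidation step to the respiratory chain, by 0.62. The medium- and long-chain dehydrogenases Acadm and Acadl had log2 fold changes of -0.75 (adjusted p = 0.0689) and -0.87 (adjusted p = 0.0627), and Cd36, the fatty acid transporter, of -0.63 (adjusted p = 0.0675). In the peroxisomal and thioesterase list 3 of 18 tested members fell and none rose (median -0.19). Ehhadh, the bifunctional enzyme of peroxisomal oxidation whose promoter is shown above, had 8.88, 5.13, 7.11, 13.2 and 6.74 CPM in WT-16 and 2.93, 1.43, 2.06, 1.74 and 3.81 CPM in KO-16 (log2 fold change -1.84, SE 0.31, adjusted p = 0.0159). The thioesterases Acot1 and Acot2, near-identical neighbours whose reads could be shared in counting, had log2 fold changes of -2.78 (adjusted p = 0.037) and -1.21 (adjusted p = 0.0438).

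Without KO-16 replicate 1 the fatty acid count was 21, without replicate 5 it was 15, and it was 0 without WT-16 replicates 1, 2, 4 or 5 or KO-16 replicates 2, 3 or 4. Ehhadh was lost without WT-16 replicates 1 or 4 or KO-16 replicate 4 (adjusted p up to 0.0567). With no scaling factors the median of all genes moved to 0.40, that of the fatty acid list to -0.25, and that of the peroxisomal list to 0.19.

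Pdk4, the kinase that switches off pyruvate dehydrogenase and that fatty acid signals raise, had 366, 277, 578, 1319 and 972 CPM in WT-16 and 196, 71.4, 89.2, 79 and 315 CPM in KO-16 (log2 fold change -2.23, SE 0.49, adjusted p = 0.0342). WT-16 itself spread widely, and KO-16 replicate 5 lay inside its range. Of 25 tested genes of pyruvate use it was the 1 that passed (median -0.15, positive with no scaling factors). Pdk2, another kinase of the enzyme, had a log2 fold change of -0.64 (adjusted p = 0.0669), the phosphatase Pdp2 of -0.97 (adjusted p = 0.0524) and the enzyme subunit Pdhb of 0.55 (adjusted p = 0.0518). The monocarboxylate transporter Slc16a7 had -1.33 (adjusted p = 0.0521). The call of Pdk4 was lost without WT-16 replicates 1, 2, 4 or 5 or KO-16 replicates 2, 3 or 4 (adjusted p up to 0.0988).

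Branched-chain amino acid breakdown fell in 6 of 21 tested members, with none higher and a median of -0.44. Ppm1k, which removes the inhibitory phosphate from the branched-chain keto acid dehydrogenase, had 192, 201, 197, 225 and 199 CPM in WT-16 and 149.6, 46.9, 39.5, 64 and 105 CPM in KO-16 (log2 fold change -1.33, SE 0.30, adjusted p = 0.0354). Dbt and Bckdhb, subunits of that dehydrogenase, had log2 fold changes of -0.91 (adjusted p = 0.0376) and -0.80 (adjusted p = 0.0405), and the later enzymes Mccc1, Mut and Aldh6a1 of -0.79 (adjusted p = 0.0279), -0.85 (adjusted p = 0.0452) and -0.88 (adjusted p = 0.0437). Bckdk, the kinase that opposes Ppm1k, had 0.11 (adjusted p = 0.606). KO-16 replicate 1 was the highest KO-16 library for Ppm1k and Dbt. The count was 11 without KO-16 replicate 1, 10 without replicate 5 and 0 without WT-16 replicates 1, 2, 4 or 5 or KO-16 replicates 2, 3 or 4.

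Glycolysis and glycogen genes were in part higher. Of 20 tested genes of glucose uptake and glycolysis 3 rose and none fell, with a median of 0.58. Gapdh, of a later step of the pathway, had 385, 374, 366, 411 and 424 CPM in WT-16 and 514, 1013, 1004, 961 and 475 CPM in KO-16 (log2 fold change 1.02, SE 0.21, adjusted p = 0.0301). Pfkp, the platelet form of phosphofructokinase, had 32.9, 29.6, 45.5, 37 and 53.5 CPM in WT-16 and 46.7, 164, 148, 172 and 45.1 CPM in KO-16 (log2 fold change 1.54, SE 0.36, adjusted p = 0.0418), and Pgam2, the muscle phosphoglycerate mutase, rose by 0.86 (adjusted p = 0.0381). KO-16 replicates 1 and 5 lay inside the WT-16 range for Pfkp, and replicate 5 did for Pgam2. Gapdh did not overlap. Hk2, a hexokinase, had 0.79 (adjusted p = 0.0528).

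In glycogen metabolism 2 of 18 tested members rose and none fell (median 0.16). Ugp2, which makes the UDP-glucose used for glycogen, had 196, 208, 199.7, 226 and 342 CPM in WT-16 and 319, 801, 627, 702 and 489 CPM in KO-16 (log2 fold change 1.33, SE 0.23, adjusted p = 0.019), and Gbe1, the branching enzyme, had 47.7, 49.1, 46.3, 45.6 and 51.5 CPM in WT-16 and 60.1, 119.5, 90.6, 89.9 and 65.9 CPM in KO-16 (log2 fold change 0.83, SE 0.17, adjusted p = 0.0279). WT-16 replicate 5 lay above KO-16 replicate 1 for Ugp2. Of 7 tested ketone body genes Bdh1, the dehydrogenase that opens ketone use, rose (log2 fold change 1.45, SE 0.30, adjusted p = 0.0296). The glycolysis count was 0 without any WT-16 library or KO-16 replicates 2, 3 or 4, and the number that rose was 8 without KO-16 replicate 1 and 16 without replicate 5. The glycogen count was 0 without WT-16 replicates 1, 2 or 4 or KO-16 replicate 4, and the call of Bdh1 was lost without WT-16 replicates 1, 2, 4 or 5 or KO-16 replicates 2, 3 or 4.

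Genes of the tricarboxylic acid cycle and the respiratory chain did not pass. By the test of edgeR none of 21 cycle genes (median -0.22), none of 42 nuclear subunits of the respiratory chain (median -0.07) and none of 13 subunits encoded in mitochondrial DNA (median -0.68) did. With no scaling factors the first 2 medians turned positive, at 0.17 and 0.33. At an unadjusted p under 0.05 the counts were 8, 6 and 7, and DESeq2 called 3, 2 and 2 at the adjusted threshold. The fold change was negative in 19 of the 21, 29 of the 42 and 12 of the 13 genes. Without KO-16 replicate 1, 5 cycle genes and 5 nuclear subunits fell. Without replicate 5, 7 mitochondrially encoded subunits fell and 2 nuclear subunits rose. The summed level of the mitochondrially encoded subunits was 153480 to 406160 CPM in WT-16 and 131230 to 303980 CPM in KO-16.

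In calcium cycling 1 of 21 tested genes fell and none rose (median -0.14, positive with no scaling factors). Atp2a2, the calcium pump of the sarcoplasmic reticulum, had 7946, 7105, 7251, 7140.4 and 6825 CPM in WT-16 and 6075, 2745, 3046, 3186 and 4788 CPM in KO-16 (log2 fold change -0.87, SE 0.21, adjusted p = 0.0459), and KO-16 replicates 2 to 4 were lowest. Its regulator Pln had -0.72 (adjusted p = 0.0702), and Ryr2, the calcium release channel, had 3040.4, 3099.5, 2899.5, 3274 and 3510.3 CPM in WT-16 and 2728, 867, 1099, 1409 and 2388 CPM in KO-16 with no overlap and did not pass (log2 fold change -0.90, adjusted p = 0.0746). None of 27 sarcomere and Z-disc genes passed the test of edgeR (median 0.03), 12 had an unadjusted p under 0.05, and DESeq2 called 6. Without KO-16 replicate 5, 9 of these genes rose and 2 fell. The call of Atp2a2 was lost without any 1 of the WT-16 libraries or of KO-16 replicates 2, 3 or 4. The number of calcium genes that fell was 8 without KO-16 replicate 1 and 10 without replicate 5.

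Few genes of signalling and stress lists passed. In the list of ATF4 targets and mitochondrial stress genes 2 of 19 fell and none rose, with a median of 0.23. They were Vldlr, a lipoprotein receptor that was also the 1 of 20 tested lipid droplet and triglyceride genes to pass (365, 377, 375, 380.3 and 398 CPM in WT-16 and 310.3, 204, 218, 212 and 234 CPM in KO-16, log2 fold change -0.68, SE 0.13, adjusted p = 0.0218), and Aldh1l2, a mitochondrial folate enzyme (log2 fold change -1.37, adjusted p = 0.0397). Atf4 itself had 0.63 (adjusted p = 0.0734). In the antioxidant list 1 of 29 rose (Gpx1, log2 fold change 1.23, adjusted p = 0.049) and 1 fell (Gstm2, log2 fold change -0.80, adjusted p = 0.0335). In insulin and FoxO signalling Igf1, a growth factor, rose (13.7, 17.3, 17.5, 18.7 and 11.3 CPM in WT-16 and 16.5, 56.6, 74, 45.3 and 52.9 CPM in KO-16, log2 fold change 1.63, SE 0.30, adjusted p = 0.0227), and Tbc1d4, which controls glucose transporter traffic, fell (log2 fold change -0.85, adjusted p = 0.0279) among 27 genes. These counts of 1 lie near the shares of all tested genes (1.98% higher and 0.951% lower), as do those of the receptor, interferon and cell cycle lists, and are no result about the lists.

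Of 24 nuclear receptors and coactivators Esr1 alone passed, and Ppara and Ppargc1a, regulators of fatty acid oxidation, had log2 fold changes of -0.54 (adjusted p = 0.283) and -0.90 (adjusted p = 0.148). Rsad2 rose among 19 interferon genes (log2 fold change 0.92, adjusted p = 0.0335). In the cell cycle list 1 of 16 tested genes fell and none rose, although 14 had a positive fold change and the median was 0.78. Without KO-16 replicate 1, and likewise without replicate 5, 5 cell cycle genes rose and 1 fell. The number that rose was 0 to 12 over all alternatives. Cenpf, a kinetochore protein, had 202, 169, 146, 169 and 102 CPM in WT-16 and 74.1, 21.2, 5.18, 13 and 33.5 CPM in KO-16 (log2 fold change -2.42, SE 0.51, adjusted p = 0.0319), while Top2a, of replicating cells, had 1.87 (adjusted p = 0.0935). Of 15 pentose phosphate and hexosamine genes none passed the test of edgeR or DESeq2, and 2 had an unadjusted p under 0.05. Except for Esr1, each call made with all libraries in this and the preceding paragraph was lost without WT-16 replicate 1 (adjusted p up to 0.124 for Gpx1).

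Markers of other cell types were compared to see what moved beside the matrix genes. None of 10 cardiomyocyte markers passed the test of edgeR (median -0.21, positive with no scaling factors), 4 had an unadjusted p under 0.05 and DESeq2 called 2. Without KO-16 replicate 1, 3 of these markers fell and none rose, and without replicate 5, 1 rose and at least 1 fell. Their summed level was 111550 to 126930 CPM in WT-16 and 83423 to 120360 CPM in KO-16. Of 12 endothelial markers Tie1 rose (log2 fold change 0.69, adjusted p = 0.0342) and none fell (median 0.40), and of 10 smooth muscle and pericyte markers Tagln rose (log2 fold change 1.48, adjusted p = 0.0318) and none fell (median 0.39). The fold change was positive in 11 of the 12 endothelial markers. Without KO-16 replicate 1, 7 endothelial markers rose and none fell, and 3 smooth muscle and pericyte markers rose and 1 fell. None of 10 tested macrophage markers passed (median 0.43), 2 had an unadjusted p under 0.05 and DESeq2 called 2, with summed levels of 118 to 154 CPM in WT-16 and 130 to 174 CPM in KO-16. Without KO-16 replicate 1, and likewise without replicate 5, 2 macrophage markers rose and none fell. None of 6 tested erythroid markers passed by edgeR, although their median was 1.77, all 6 had an unadjusted p under 0.05 and DESeq2 called 1. Without KO-16 replicate 1, 5 erythroid markers rose. Hbb-bs, a beta globin, had 24, 44, 75.4, 30.04 and 29.8 CPM in WT-16 and 64.1, 142, 798, 327 and 23.2 CPM in KO-16, high in KO-16 replicates 3 and 4. Markers of lymphocytes, neutrophils and mast cells, skeletal muscle and nerve were tested in 1 or 2 members each, none passed by edgeR or DESeq2, 1 of the nerve markers had an unadjusted p under 0.05, and Myod1, Myf6 and Mpo had no count in any library. None of 2 adipocyte and 7 mesothelial markers passed by edgeR or DESeq2, and 2 mesothelial markers had an unadjusted p under 0.05. Without KO-16 replicate 1, 2 mesothelial markers fell and none rose. Without replicate 5, 1 nerve marker fell and none rose. The calls of Tie1 and Tagln were lost without WT-16 replicates 1, 2, 4 or 5 or KO-16 replicates 2, 3 or 4. The part of cell composition in the changes above was not tested.

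**Figure D5:**
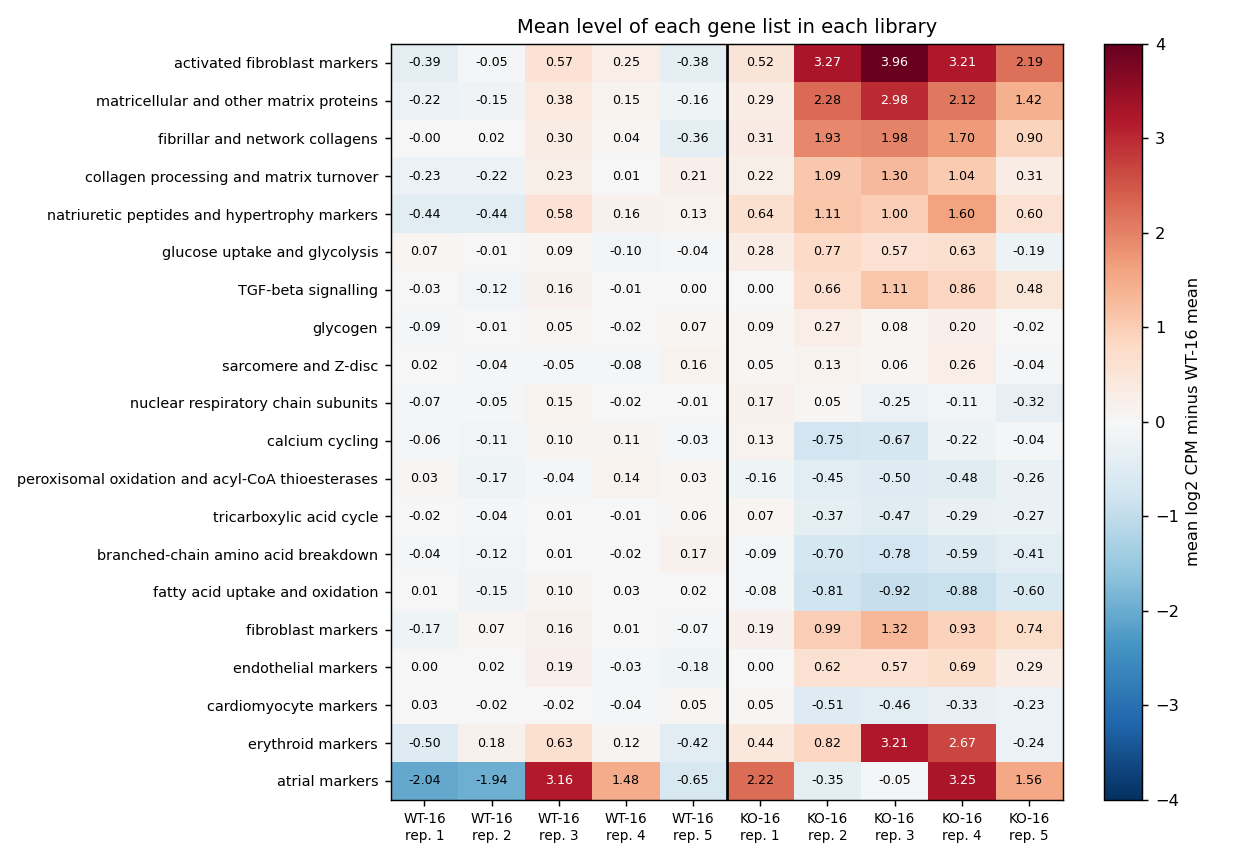
Mean log2 CPM of the tested members of 20 gene lists in each library, as the difference from the WT-16 mean (red higher, blue lower). KO-16 replicates 2 to 4 are at 3.22 to 3.96 for activated fibroblast markers, replicate 5 at 2.19 and replicate 1 at 0.52, and atrial and erythroid markers vary between libraries of the same group.

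The KO-16 libraries ranked differently in different lists. For activated fibroblast markers the mean deviation from WT-16 on the log2 scale was 0.52, 3.27, 3.96, 3.22 and 2.19 in KO-16 replicates 1 to 5, for collagens 0.31, 1.93, 1.98, 1.70 and 0.90, and for fatty acid genes -0.08, -0.81, -0.92, -0.88 and -0.60. The WT-16 libraries lay between -0.39 and 0.57 for the first, -0.36 and 0.30 for the second and -0.15 and 0.10 for the third. KO-16 replicate 1 thus lay inside the WT-16 range for activated fibroblast and fatty acid genes and just above it for collagens. Glycolysis genes were at 0.28, 0.77, 0.57, 0.63 and -0.19, with replicate 5 below all WT-16 libraries. Calcium cycling genes were at 0.13, -0.75, -0.67, -0.22 and -0.04, so that only replicates 2 to 4 lay below all WT-16 libraries. Nuclear subunits of the respiratory chain were at 0.17, 0.05, -0.25, -0.11 and -0.32, with replicate 5 the lowest, and mitochondrially encoded subunits at -0.29, -1.30, -0.53, -0.93 and 0.07. Atrial markers were at 2.22, -0.35, -0.05, 3.25 and 1.56, and erythroid markers at 0.44, 0.82, 3.21, 2.67 and -0.24.

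Among called genes of at least 5 CPM and an absolute log2 fold change of at least 1, the spread over KO-16 libraries was largest for Ltbp2 (SD of log2 CPM 2.44, against 1.21 in WT-16), Thbs4 (2.41), Col12a1 (1.99), Nmrk2 (1.99) and Comp (1.95). It was smallest for Slc7a1 (0.22), Lama3 (0.22), Nfatc2 (0.26), AC132253.9 (0.30) and Hsd17b11 (0.31). Nfatc2, a calcium-regulated transcription factor, had 11.5, 8.04, 5.72, 8.65 and 7.83 CPM in WT-16 and 3.66, 3.33, 4.94, 3.72 and 3.02 CPM in KO-16 (log2 fold change -1.12, SE 0.21, adjusted p = 0.0251), with no overlap between the groups. Hsd17b11, a lipid droplet dehydrogenase, had 13.4, 7.53, 8.99, 16.5 and 10.4 CPM in WT-16 and 6.19, 3.78, 5.88, 6.39 and 6.35 CPM in KO-16 (SE of the log2 fold change 0.23, adjusted p = 0.0379). Slc7a1 and Lama3 passed with each library left out, while Nfatc2 was lost without WT-16 replicates 1, 2, 4 or 5 or KO-16 replicates 2 or 4 (adjusted p up to 0.077).

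Further genes stood among the 15 largest changes in each direction or the most abundant calls. Cfap61, a protein of motile cilia, had 2.61 to 6.33 CPM in WT-16 and 0.0588 to 1.73 CPM in KO-16 (log2 fold change -2.74, SE 0.55, adjusted p = 0.0279). Lgals4, a galectin, had 29.3, 22.9, 29.4, 34.4 and 24.6 CPM in WT-16 and 17.6, 1.67, 3.65, 2.21 and 7.30 CPM in KO-16 (log2 fold change -2.13, SE 0.50, adjusted p = 0.0418). Irx2, Pirt, Alox5, Whrn, Tmem82 and Pkd2l2 fell by 1.42 to 1.67 on the log2 scale, from WT-16 means of 4.08 to 9.31 CPM. Dio2, the deiodinase that activates thyroid hormone, rose from 1.20, 0.684, 4.36, 1.42 and 1.74 CPM in WT-16 to 3.06, 26.7, 68.8, 12.7 and 10.6 CPM in KO-16 (log2 fold change 3.42, SE 0.73, adjusted p = 0.0332). Ttc25, of cilia, rose by 3.72, from a range of 0 to 0.218 CPM in WT-16 to 1.33 to 3.65 CPM in KO-16. Its WT-16 values are near the floor, so the size of this fold change is uncertain. Pam, which amidates peptide hormones, had means of 429 CPM in WT-16 and 838 CPM in KO-16 (log2 fold change 0.97, SE 0.22, adjusted p = 0.037), and Klhl24, a ubiquitin ligase adaptor, fell from a range of 348 to 431 CPM in WT-16 to 197 to 337 CPM in KO-16 (log2 fold change -0.67, SE 0.15, adjusted p = 0.037). Ttc25 passed with each library left out, and the others of this paragraph were lost without WT-16 replicate 1, 2 or 4, with adjusted p up to 0.122 (Alox5).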

How the data were processed

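Ventricular RNA was sequenced in 10 libraries at 16 weeks, 5 KO-16 and 5 WT-16. The deposited values are counts of read pairs per gene, made with featureCounts 1.6.3 on GRCm38 with Ensembl release 96, per the file headers. Cutadapt 1.16, FastQC, STAR, RSEM and SAMtools are named without a role in the submitters' processing notes. Each library had 2 count files, which were summed over 55536 genes. The 2 files of a library differed by 1.25 to 2.72 (chi-square per gene), less than any 2 libraries of the same group did. This measure grows with the number of reads, which was not the same in these pairs. The values are therefore not on a common scale and do not show that files were more alike than libraries.

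The 18S rRNA gene was left out, low genes were removed with filterByExpr, and TMM factors and the quasi-likelihood test of edgeR 4.0.16 (R 4.3.3) were applied to the counts as deposited, with Benjamini-Hochberg adjustment. The SE was obtained by dividing the size of the log2 fold change by the root of the F statistic. Log2 CPM used a prior count of 2. In data simulated from these libraries (12402 genes, KO-16 against WT-16), 14.9%, 53.7% and 97.0% of genes changed by 1.5, 2 and 4-fold were recovered, with 4 false among 114 calls. The simulation gave both groups the same spread per gene and drew the genes independently. In the real libraries KO-16 spread more than WT-16 and whole libraries shifted together, so these shares may not hold for them. Libraries held 8632127 to 26914074 pairs, and a floor of 3 counts served genes with none.

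The genes named are Mpc1 and Mpc2, the 15 largest rises and falls among calls of at least 1 CPM, up to 4 members of each list, the 5 calls of smallest and of largest spread in KO-16, the 5 most abundant calls in each direction, and further list members. The comparison, the members and the 43 lists were chosen with earlier results of these data known. Some genes and lists are not reported here. Alternatives changed the scaling, filter, tool (DESeq2 1.42.0, limma 3.58.1), count file, covariates or libraries. Promoter windows are from RefSeq on GRCm38.p6, matched by symbol. Protein sequences were not used here.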

Additional observations from a re-analysis of the deposited data

Results flagged for a closer look

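A library was singled out where its gap to the nearest library of its group was over 0.71 of the range of the 5 values (Dixon's test). Of 266 groups of 5 values examined, 22 had such a library, and chance gives about 1 in 20 for independent values of a normal distribution. Many of the items are genes named for their values in these same libraries, so that share is no baseline for the 22.

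WT-16 replicate 3 had the largest total, 19678367 read pairs, and the lowest share of mitochondrial genes, 32.18%. It was highest of its group for the atrial genes Nppa (312 CPM), Myl7 (83.16 CPM) and Myl4 (106.2 CPM), and for Nmrk2 (1.789 CPM) and Dio2 (4.363 CPM), genes that rose in KO-16. KO-16 replicate 1, the library of the smallest shift, was highest of its group for Vldlr (310.3 CPM), Gstm2 (23.62 CPM), Slc25a20 (71.05 CPM) and Ppara (32.73 CPM). KO-16 replicate 3 was highest for Comp (66.17 CPM) and Sfrp2 (49.7 CPM).

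WT-16 replicate 5, the male of its group, was highest for Acta1 (47.83 CPM), Ugp2 (342.2 CPM), Nampt (330.2 CPM) and Prkg1 (32.61 CPM) and lowest for Pirt (4.565 CPM). WT-16 replicate 2 was highest for Col1a1 (20.36 CPM) and Slc16a7 (27.89 CPM), WT-16 replicate 4 for Ppm1k (224.6 CPM), and KO-16 replicate 2 lowest for Hsd17b11 (3.784 CPM).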

How the results depend on the processing

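The numbers of genes called (363 in all, 245 higher, 118 lower) moved by over 1.5 times in several alternatives, and the cause was not tested. They were 634, 613 and 21 with no scaling factors, 1052, 658 and 394 with no filter on low counts, 1152, 625 and 527 with DESeq2, 2524, 1206 and 1318 with limma-voom and quality weights, and 3187, 1741 and 1446 in a fit of all 19 libraries. With limma-voom 341 genes were called, 114 higher and 227 lower, so that the split turned. With the 18S share as a covariate they were 27, 21 and 6, and without both male libraries, an alternative chosen after the data were seen, 10, 7 and 3. Leaving out 1 library at a time gave 29 to 1849 genes, 21 to 1005 higher and 8 to 844 lower. With RLE or upper-quartile factors, the 18S gene kept, 1 CPM in 5 libraries as the filter, 1 count file alone, mitochondrial genes or, chosen after the data were seen, all annotated rRNA genes left out, or sex as a covariate, the numbers in all ranged from 275 to 366. In every alternative, those of the 363 genes that were tested kept their sign. That is no separate support, because the genes were picked for a difference in the same libraries. In the simulated data, with the same spread per gene in both groups, changes of 1.5-fold were mostly missed. No paired analysis was possible because the labels give the libraries no replicate numbers, and those used here follow the order of the records.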

Other observations

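Among the 118 genes called lower were 7 of the 171 lincRNA genes tested, and among the 245 called higher were 3 of them, beside 0.951% and 1.98% of all tested genes called lower and higher. This gene class was singled out after its values were seen, and the difference was not tested.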
